A study of Mus musculus with 6 samples.

Results

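Serpina genes encode the clade A serpins, secreted proteins made largely by hepatocytes. The genes described here were Serpina1a, Serpina1b, Serpina3g, Serpina3k, Serpina3m, Serpina3n, Serpina6, Serpina7, Serpina10 and Serpina12, which are 10 of 21 Serpina genes and 22183 gene symbols in the deposited count table. The 10 genes were selected on their measured difference between DOX and PBS livers, so their own values in that comparison are a description and carry no test. Most serpins act as suicide inhibitors: a protease cuts an exposed loop, the reactive centre, and the serpin then folds around the enzyme and traps it. Alpha-1 antitrypsin restrains neutrophil elastase, and its counterparts in mice are the Serpina1 copies. The mouse Serpina3 genes are an expanded set of relatives of human alpha-1 antichymotrypsin. Which protease each mouse copy inhibits was not examined here. A pair of members carry hormones instead of blocking proteases: Serpina6 is corticosteroid-binding globulin and Serpina7 is thyroxine-binding globulin.

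Messenger RNA was sequenced from 6 mouse liver samples in 2 groups, 3 labelled S2W-DOX and 3 labelled S2W-PBS. All 6 samples had the genotype BucheKI/KI-Hep and all came with DDC treatment, so no sample without the knock-in or without DDC was compared. The study overexpressed butyrylcholinesterase (Buche, gene symbol Bche) in hepatocytes. The labels spell out neither DOX, DDC nor S2W, and give no driver of the knock-in, age, sex or strain. Whether the samples of a group are separate animals is not stated, so their spread may be technical. Bche, the check of the labels, stood at 1937, 1866 and 1763 CPM (read counts per gene, put on 1 library total for all) in DOX livers, against 177, 177 and 206 CPM in PBS livers, a 9.94-fold difference. The DOX agent and the raised Bche come together in the same livers and cannot be told apart. Total counts ranged from 32476725 to 41921404 per library. Mitochondrially encoded genes took 5.39, 5.11 and 6.81% of counts in DOX livers and 4.52, 4.58 and 3.45% in PBS livers, and the part of this difference in the results was not tested.

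The stretch that carries the reactive centre tells the copies apart. Below is the coding sequence from the hinge of the loop to its far end, read from GENCODE M21 on GRCm38, with the 4 hinge codons in capitals. In each gene the stretch lay within 1 coding exon.
Serpina1a (chr12:103853750-103853836, minus strand): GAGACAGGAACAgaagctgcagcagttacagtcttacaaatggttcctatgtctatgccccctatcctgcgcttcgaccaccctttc
Serpina1b (chr12:103728317-103728403, minus strand): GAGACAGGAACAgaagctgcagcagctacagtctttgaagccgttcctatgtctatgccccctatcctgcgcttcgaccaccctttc
Serpina3k (chr12:104345263-104345352, plus strand): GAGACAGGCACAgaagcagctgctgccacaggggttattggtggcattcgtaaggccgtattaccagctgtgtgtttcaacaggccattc
Serpina3m (chr12:104393763-104393858, plus strand): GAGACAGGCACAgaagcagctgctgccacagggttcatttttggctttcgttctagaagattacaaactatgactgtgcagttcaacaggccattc
Serpina3n (chr12:104413442-104413537, plus strand): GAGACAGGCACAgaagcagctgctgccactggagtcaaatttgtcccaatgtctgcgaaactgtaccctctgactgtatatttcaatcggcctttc
Serpina3g (chr12:104241066-104241161, plus strand): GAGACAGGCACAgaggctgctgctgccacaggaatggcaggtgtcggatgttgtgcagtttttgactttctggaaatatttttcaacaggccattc
Serpina6 (chr12:103646915-103647001, minus strand): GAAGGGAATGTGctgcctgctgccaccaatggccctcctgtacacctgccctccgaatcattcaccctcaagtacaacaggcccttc
Serpina7 (chrX:139080360-139080458, minus strand): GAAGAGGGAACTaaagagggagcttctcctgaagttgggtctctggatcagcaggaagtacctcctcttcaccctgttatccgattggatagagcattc
Serpina10 (chr12:103616912-103616998, minus strand): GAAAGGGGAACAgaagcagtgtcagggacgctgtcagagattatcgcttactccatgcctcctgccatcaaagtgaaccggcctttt
Serpina12 (chr12:104031091-104031177, minus strand): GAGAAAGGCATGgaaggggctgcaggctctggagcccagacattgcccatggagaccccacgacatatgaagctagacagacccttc
Serpina1a and Serpina1b differed at 6 of 87 aligned bases of this stretch, an identity of 93.1%, against 97.0% over the whole coding sequence. Serpina3k and Serpina3m differed at 16 of 90 aligned bases, an identity of 82.2% against 91.8% over the whole coding sequence. Serpina3k and Serpina3n were 78.4% identical in the stretch, and Serpina6 and Serpina7 were 59.0% identical. The search for the hinge admitted only codons of glycine, histidine or asparagine at the third place. Within that limit, the third capital codon was gga or ggc in each member except Serpina6, where it was aat. Serpina7, the other hormone carrier, had gga.

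Both antitrypsin copies were higher in DOX livers. Serpina1b stood at 5687, 4729 and 5991 CPM in DOX livers, against 2710.0, 2737 and 2592 CPM in PBS livers. Serpina1a stood at 1756, 1343 and 1662 CPM in DOX livers, against 774, 894 and 840.3 CPM in PBS livers. Neither gene overlapped between the groups, and DOX 2 was the lowest DOX library for both. The log2 fold change was 1.03 (SE 0.14) for Serpina1b and 0.92 (SE 0.14) for Serpina1a.

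Reads of the antitrypsin copies are hard to assign to 1 gene. Of all 100-base windows of coding sequence, 57.7% in Serpina1a and 27.9% in Serpina1b occurred unchanged in another copy, and the sources do not say how such reads were counted. The values of single Serpina1 copies are therefore uncertain, and the sum of Serpina1a to Serpina1e is the firmer quantity. That sum was 10340.1, 8697 and 10674 CPM in DOX livers, against 4872, 5024 and 4751 CPM in PBS livers, a log2 fold change of 1.02 (SE 0.14, 2.03-fold). Serpina1b took 55.0, 54.4 and 56.1% of Serpina1 counts in DOX livers and 55.6, 54.5 and 54.6% in PBS livers, so its share overlapped between the groups. Serpina1a took 17.0, 15.4 and 15.6% in DOX livers and 15.9, 17.8 and 17.7% in PBS livers, also with overlap. The Serpina1c share overlapped too. Serpina1d took 18.5, 18.5 and 17.9% in DOX livers and 17.8, 15.4 and 17.2% in PBS livers, without overlap. Serpina1e took 0.766, 1.02 and 1.39% in DOX livers and 0.215, 0.597 and 0.242% in PBS livers, again without overlap. Per length, Serpina1b ranked 14th in DOX livers and 26th in PBS livers among all genes of the table by mean FPKM (the deposited level per transcript length and library size), at 3640.0 ± 499 FPKM in DOX livers and 1987 ± 118 FPKM in PBS livers (SD, n = 3 each).

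Serpina3k had the largest fold of the higher members. It encodes contrapsin, a plasma inhibitor of trypsin-like proteases in mice. Serpina3k stood at 6091, 7558 and 7289.9 CPM in DOX livers, against 1959, 2454 and 2142 CPM in PBS livers. Every DOX library was above every PBS library, and the log2 fold change was 1.68 (SE 0.15, 3.19-fold). It ranked 13th by mean FPKM in DOX livers and 36th in PBS livers.

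Serpina3m, its closest relative among the members, was higher by a smaller fold. Serpina3m stood at 479.5, 575 and 602 CPM in DOX livers, against 278, 325 and 327 CPM in PBS livers. The groups did not overlap, and the log2 fold change was 0.83 (SE 0.13). Exact 100-base windows were shared between Serpina3k and Serpina3m for 8.2% of each coding sequence, so misassigned reads can touch the smaller gene. The ratio of Serpina3k to Serpina3m FPKM was 12.8, 13.2 and 12.2 in DOX livers, against 7.08, 7.59 and 6.58 in PBS livers, with no overlap.

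Serpina3n, an acute-phase serpin that inhibits granzyme B in mice, overlapped between the groups. It stood at 450.3, 675 and 581 CPM in DOX livers, against 361, 481 and 488 CPM in PBS livers. DOX 1 lay below PBS 2 and PBS 3, and the log2 fold change was 0.36 (SE 0.17). Serpina3k made up 86.6, 85.7 and 86.0% of all Serpina3 counts in DOX livers and 75.0, 74.9 and 71.9% in PBS livers. Serpina3n made up 6.40, 7.65 and 6.85% in DOX livers and 13.8, 14.7 and 16.4% in PBS livers, so its share was lower in DOX livers although its level was not. The summed Serpina3 level was 7035, 8821 and 8481 CPM in DOX livers, against 2613, 3276 and 2977 CPM in PBS livers, a log2 fold change of 1.46 (SE 0.16, 2.75-fold).

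**Figure D1:**
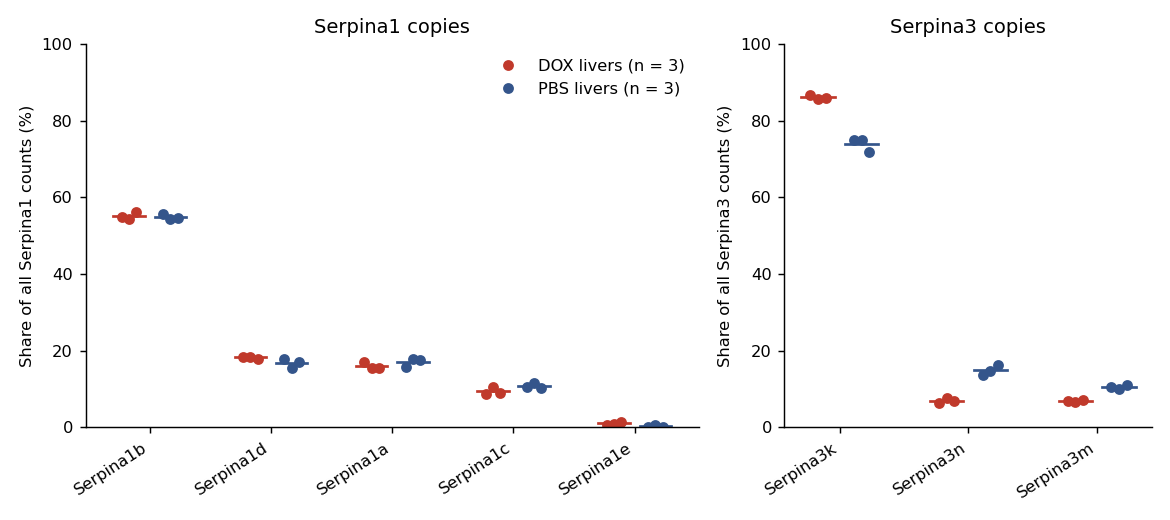
Share of all Serpina1 counts (left) and of all Serpina3 counts (right) taken by each gene, in percent, with 1 point per library, lines at the group means, and DOX livers left of PBS livers. Serpina1b held about the same share in both groups (54.4 to 56.1% in DOX, 54.5 to 55.6% in PBS), whereas Serpina3k held 85.7 to 86.6% in DOX and 71.9 to 75.0% in PBS. The Serpina1d and Serpina1e shares were higher in every DOX library than in every PBS library.

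Serpina3g went the other way from Serpina3k and Serpina3m. In mice it acts inside cells on cysteine cathepsins and is made by immune cells as well. Serpina3g stood at 9.21, 8.34 and 5.68 CPM in DOX livers, against 11.4, 13.5 and 16.0 CPM in PBS livers. The groups did not overlap, and the log2 fold change was -0.81 (SE 0.19). Lymphocyte markers were low, and lower in DOX livers. The 9 markers in the table summed to 1.68 to 3.39 CPM in DOX livers and 5.13 to 7.32 CPM in PBS livers. Of the 6 tested, 1 passed as lower, against 14.0% of all genes. Macrophage markers summed to 1758 to 1805 CPM in DOX livers and 1667 to 1815 CPM in PBS livers, with overlap. Neutrophil marker sums also overlapped, at 42.2 to 92.4 CPM in DOX livers and 44.5 to 67.2 CPM in PBS livers. The part of these markers in the Serpina3g difference was not tested. In a bulk liver sample, fewer cells of a type and less RNA per cell cannot be told apart.

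**Figure D2:**
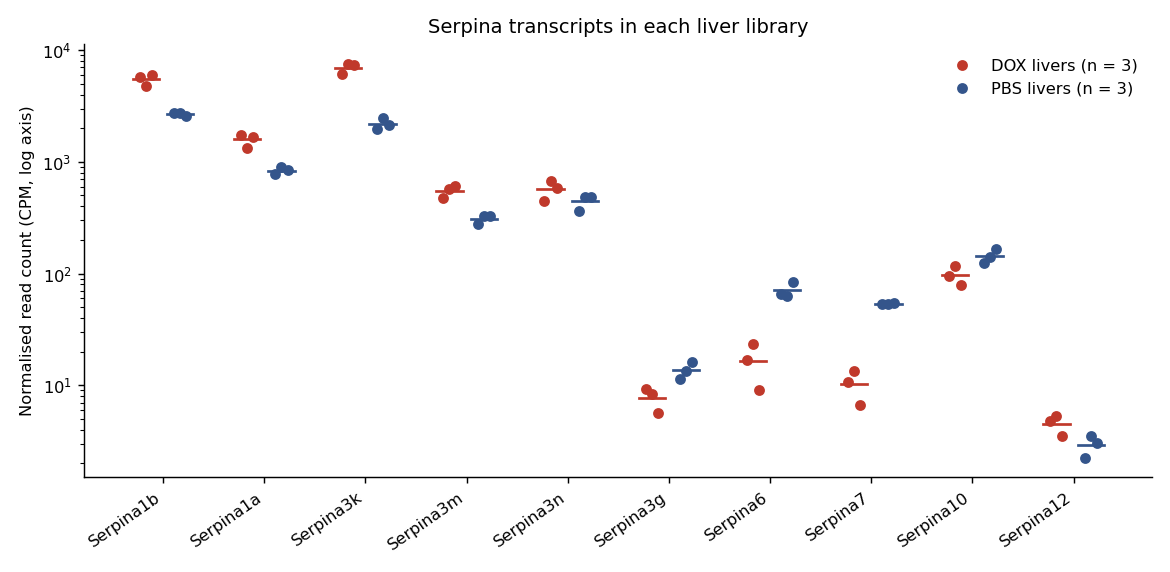
Normalised read count of each member (CPM, log axis) in each library, with 1 point per library, lines at the group means, and DOX livers left of PBS livers (n = 3 each). The antitrypsin copies, Serpina3k and Serpina3m are higher in all DOX libraries, Serpina3n overlaps, and Serpina3g, Serpina6, Serpina7 and Serpina10 are lower in all DOX libraries.

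The hormone carriers had the lowest levels relative to PBS livers. Serpina6, corticosteroid-binding globulin, stood at 16.7, 23.3 and 9.08 CPM in DOX livers, against 66.2, 63.5 and 84.1 CPM in PBS livers. Every DOX library was below every PBS library, and the log2 fold change was -2.12 (SE 0.34). Serpina7, thyroxine-binding globulin, stood at 10.8, 13.4 and 6.73 CPM in DOX livers, against 53.0, 53.5 and 54.6 CPM in PBS livers. Again the groups did not overlap, and the log2 fold change was -2.38 (SE 0.21). For both carriers, as for Serpina10 and Serpina12, DOX 2 was the highest DOX library and DOX 3 the lowest. The coefficient of variation of Serpina7 was 32.7% in DOX livers and 1.53% in PBS livers. That of Serpina6 was 43.5% in DOX livers and 15.7% in PBS livers. By mean FPKM, Serpina6 ranked 4084th in DOX livers and 1274th in PBS livers, and Serpina7 ranked 6757th in DOX livers and 2247th in PBS livers. The ratio of Serpina7 to Serpina6 FPKM was 0.424, 0.379 and 0.486 in DOX livers, against 0.525, 0.553 and 0.426 in PBS livers, and overlapped. Neither carrier shared any 100-base coding window with another Serpina gene.

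Serpina10, the protein Z-dependent inhibitor of activated factor X, stood at 95.1, 116 and 78.5 CPM in DOX livers, against 125, 140.1 and 166 CPM in PBS livers. DOX 2 came closest to PBS 1, without overlap, and the log2 fold change was -0.57 (SE 0.15). Its call was lost without DOX 1 (log2 fold change -0.56), without DOX 3 (-0.44) and without PBS 3 (-0.46). Proz, the cofactor that brings Serpina10 to its target, stood at 298, 314 and 235 CPM in DOX livers, against 272, 259.5 and 308 CPM in PBS livers. Its groups overlapped and its log2 fold change was 0.01 (SE 0.14, adjusted p = 0.952 in the edgeR quasi-likelihood fit, Benjamini-Hochberg adjusted), a direction that turned under library size alone and without DOX 1, DOX 2, PBS 1 or PBS 2. F10, the gene of the target protease, had a log2 fold change of 0.29 (SE 0.12, adjusted p = 0.0887 by the same edgeR test); it passed with DESeq2 and without DOX 2.

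Serpina12, vaspin, is known mainly as an adipokine that inhibits kallikrein-related peptidase 7. It was the scarcest member, at 4.84, 5.30 and 3.49 CPM in DOX livers, against 2.26, 3.49 and 3.02 CPM in PBS livers. DOX 3 and PBS 2 were almost equal, and the log2 fold change was 0.64 (SE 0.24). It was not called, although it was called with DESeq2 and without DOX 3. The 2 adipocyte markers in the table, Adipoq and Fabp4, summed to 29.7 to 37.5 CPM in DOX livers and 26.9 to 31.5 CPM in PBS livers, with overlap. Nearly all of this was Fabp4: Adipoq was at 0 CPM in the DOX libraries, and at 0.0228 CPM in PBS 2 and 0 CPM in PBS 1 and PBS 3.

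Counted together, DOX livers gave 4 higher calls and 4 lower calls among the members (edgeR, adjusted p below 0.05), while 2 members were not called. Over all 14681 genes tested, 13.5% were called higher and 14.0% lower. For 5 members every DOX library lay above every PBS library, and for 4 every DOX library lay below. Over all genes tested these shares were 21.8% above and 22.3% below. Since the members were selected on this comparison, nothing is read from their counts. All 10 members passed the filter on low counts. The 10 members together took 1.37, 1.40 and 1.57% of all counts in DOX livers, against 0.678, 0.774 and 0.684% in PBS livers.

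Another 11 Serpina genes were in the table and were not selected. Of the 8 that could be tested, 5 rose and 0 fell (edgeR, adjusted p below 0.05), against 13.5% and 14.0% of all genes. The median log2 fold change of the 8 was 0.98, against -0.01 for all genes tested. At an unadjusted p under 0.05, 6 were higher and 0 lower, and DESeq2 called 5 higher and 0 lower. The antitrypsin copies Serpina1c and Serpina1d rose, with log2 fold changes of 0.82 (SE 0.12, adjusted p = 0.00123) and 1.14 (SE 0.13, adjusted p = 0.000284 by edgeR). Their copy assignment is uncertain, as for Serpina1a and Serpina1b. Of 100-base coding windows, 61.7% in Serpina1c, 29.8% in Serpina1d and 19.1% in Serpina1e occurred unchanged in another copy. The higher calls of these copies are therefore not independent of the selected Serpina1a and Serpina1b. Serpina1e stood at 79.2, 89.0 and 148 CPM in DOX livers, against 10.5, 29.99 and 11.5 CPM in PBS livers, with a log2 fold change of 2.60 (SE 0.56). Its groups did not overlap, but its call was lost without DOX 1, DOX 2, DOX 3, PBS 1 or PBS 3, with log2 fold changes of 2.28 to 2.77 there. Serpina3c rose by 2.0 on the log2 scale (SE 0.46), at 1.03, 1.53 and 0.793 CPM in DOX livers and 0.391, 0.160 and 0.281 CPM in PBS livers. Serpina11 rose by 0.56 (SE 0.12) on the same scale. Serpina5, the protein C inhibitor, had a log2 fold change of 1.20 (SE 0.52), Serpina3f -0.45 (SE 0.33) and Serpina3i 0.24 (SE 0.43), and none of the 3 passed. Serpina3i turned to -0.15 without DOX 2. Serpina3a, Serpina3b and Serpina9 had too few counts to be tested.

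Except for Serpina7 on chromosome X, the genes lie in a cluster on mouse chromosome 12. From the RefSeq table of GRCm38.p6, Serpina10 (chr12:103616675-103631490) and Serpina6 (chr12:103646630-103657218) are neighbours at its low-coordinate end. Serpina1b (chr12:103728156-103738189), with a level higher in DOX livers, is the next Serpina gene of the table. Serpina12 (chr12:104028769-104044443) lies between the antitrypsin copies and the Serpina3 genes. At the high-coordinate end, Serpina3g (chr12:104236147-104241939), Serpina3k (chr12:104338486-104345739), Serpina3m (chr12:104387157-104394259) and Serpina3n (chr12:104406646-104414334) lie in that order. Serpina3g lies between Serpina3f and Serpina3i, neither of which passed, and Serpina3i lies between Serpina3g and Serpina3k. Called lower and called higher genes of the table lie side by side at Serpina6 and Serpina1b. Serpina1a lies at chr12:103853295-103863619 and Serpina7 at chrX:139079249-139085236.

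**Figure D3:**
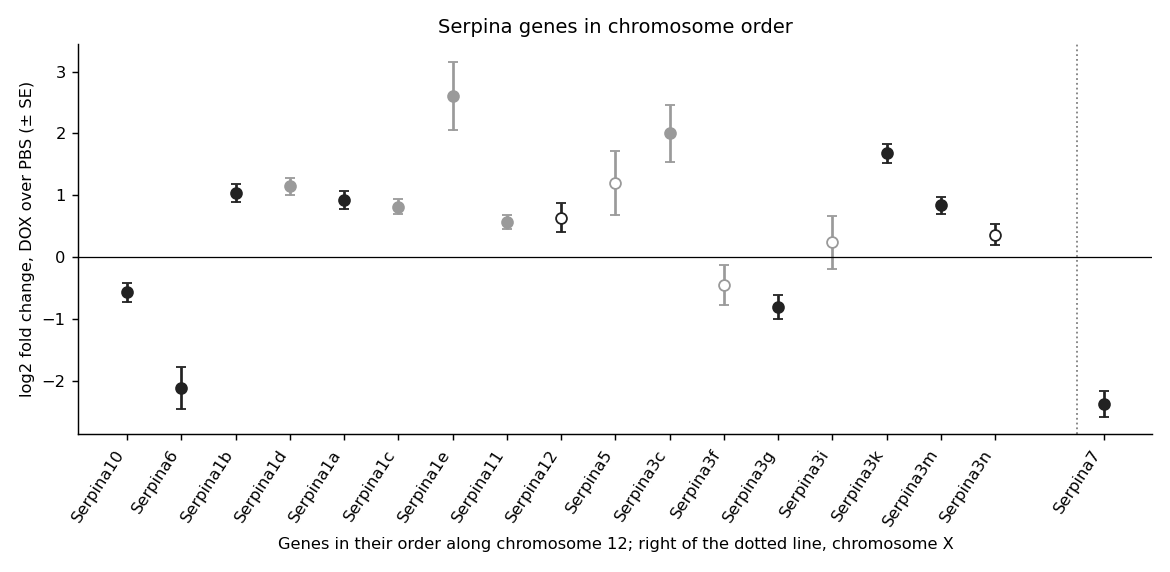
Log2 fold change (DOX over PBS, ± SE) of the 18 Serpina genes tested, in their order along chromosome 12, with Serpina7 of chromosome X right of the dotted line. Black points are members, grey points other genes, and open points did not pass. Serpina10 and Serpina6 at the left edge lie below 0, the antitrypsin copies beside them lie above 0, and Serpina3g is the only called Serpina3 gene below 0.

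Promoters are shown for both antitrypsin copies, which moved together, and for Serpina7, which moved the other way. Each line gives the 250 bases before the RefSeq gene start (GRCm38.p6, minus strand, written in the direction of the gene), with the motif matches in capitals.
Serpina1a (chr12:103863620-103863869, minus strand): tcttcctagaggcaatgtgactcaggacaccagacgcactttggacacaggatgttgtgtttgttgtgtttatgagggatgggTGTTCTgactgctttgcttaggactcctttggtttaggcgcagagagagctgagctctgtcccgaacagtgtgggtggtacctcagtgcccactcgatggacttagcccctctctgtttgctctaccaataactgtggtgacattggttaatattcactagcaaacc
Serpina1b (chr12:103738190-103738439, minus strand): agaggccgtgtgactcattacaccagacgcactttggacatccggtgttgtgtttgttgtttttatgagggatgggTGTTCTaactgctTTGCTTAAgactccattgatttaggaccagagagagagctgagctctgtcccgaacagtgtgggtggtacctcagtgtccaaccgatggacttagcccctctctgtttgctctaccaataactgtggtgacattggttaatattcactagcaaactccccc
Serpina7 (chrX:139085237-139085486, minus strand): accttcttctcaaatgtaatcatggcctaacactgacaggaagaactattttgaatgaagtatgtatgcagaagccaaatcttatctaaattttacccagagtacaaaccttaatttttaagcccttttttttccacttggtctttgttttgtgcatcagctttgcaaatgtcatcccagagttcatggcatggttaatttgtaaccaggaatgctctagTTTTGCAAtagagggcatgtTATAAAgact
The motifs searched on both strands were TATAAA (bound by the TATA-binding protein), TTGCNNAA (C/EBP factors), AGAACA (a half-site of the glucocorticoid receptor), TTCNNNGAA (STAT factors) and TTATGNAA (the D-box). A match is a description and not a site. Serpina1a and Serpina1b were 92.6% identical over 243 aligned promoter bases, and both held AGAACA, here read on the other strand as TGTTCT, which began 167 bases before the start in Serpina1a and 174 bases before it in Serpina1b. Serpina1b also held TTGCNNAA. Serpina7, lower in DOX livers, held TTGCNNAA and TATAAA. Of 27025 promoters of the same length, 9.6% held TTGCNNAA, 16.2% AGAACA and 13.0% TATAAA. Among the 16 Serpina genes with a promoter entry, 6 of them members, 11 held AGAACA and 8 held TTGCNNAA. The 11 include Serpina1a to Serpina1e, whose promoters were 92.1 to 98.0% identical to each other. They also include Serpina3c and Serpina3n, at 92.7%. Near-identical promoters repeat the same sequence, so the 11 are not independent. Among members, AGAACA was also in Serpina3n and TTGCNNAA in Serpina12. TTCNNNGAA was in Serpina3g, and in 7.2% of all promoters. TTATGNAA was in Serpina3n, and in 3.2% of all promoters. No entry was found for Serpina3k, Serpina3m, Serpina6 and Serpina10.

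Genes that work on thyroid hormone, which Serpina7 carries, were mixed. Of 16 tested genes of thyroid hormone transport, conversion and response, 4 rose and 5 fell (median log2 fold change 0.11). Over all genes tested, 13.5% rose and 14.0% fell. Dio1, the deiodinase that activates thyroxine, stood at 1.22, 1.74 and 0.666 CPM in DOX livers, against 5.07, 7.96 and 8.92 CPM in PBS livers. It fell by 2.59 on the log2 scale (SE 0.33, adjusted p = 0.000573, edgeR), with no overlap. The thyroid hormone transporter Slc16a10 fell by 0.78 (SE 0.16, adjusted p = 0.00619, edgeR). Klf9, a transcription factor gene that responds to both thyroid hormone and glucocorticoids, stood at 206, 185 and 208 CPM in DOX livers, against 75.1, 64.9 and 76.8 CPM in PBS livers. It rose by 1.47 on the log2 scale (SE 0.11, adjusted p = 3.67e-05, edgeR). Ttr encodes transthyretin, another thyroxine carrier made by the liver. It stood at 2046, 1805 and 1237 CPM in DOX livers, against 2351, 2298 and 2073 CPM in PBS livers. It did not pass (log2 fold change -0.40, SE 0.18, adjusted p = 0.113, edgeR), but passed under library size alone. Without PBS 2 the list had 1 higher call, and without DOX 1 it had 3 lower calls.

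Of 21 tested genes of glucocorticoid handling and response, 10 rose and 1 fell (median log2 fold change 0.38), against 13.5% and 14.0% of all genes. Per1, a clock gene with a glucocorticoid response element, stood at 80.1, 71.0 and 83.0 CPM in DOX livers, against 37.9, 39.1 and 39.9 CPM in PBS livers. Sgk1, a glucocorticoid-induced kinase, stood at 133, 113 and 146 CPM in DOX livers, against 58.5, 39.7 and 43.7 CPM in PBS livers. The metallothionein Mt2 stood at 296, 199.9 and 232 CPM in DOX livers, against 88.2, 107 and 107 CPM in PBS livers. None of the 3 overlapped, and their log2 fold changes were 1.0 (SE 0.10), 1.47 (SE 0.15) and 1.27 (SE 0.15), with edgeR adjusted p-values of 0.000129, 0.000177 and 0.000311. Tat, tyrosine aminotransferase, rose by 1.43 (SE 0.17) and Hsd11b1, the enzyme that regenerates active glucocorticoid, by 0.79 (SE 0.12) on the log2 scale. The gene that fell was Akr1c6, a hydroxysteroid dehydrogenase, by 1.54 (SE 0.35, adjusted p = 0.0226, edgeR). That call was lost without DOX 1, PBS 1, PBS 2 or PBS 3. Of the higher calls in this list, those of Akr1d1, Pck1 and Mt1 were lost without DOX 1 or PBS 2. Tat, Hsd11b1, Akr1c6, Akr1d1, Pck1 and Mt1 were named after their values were seen.

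The protease list held 20 tested genes that serpins of several clades act on, or that belong to the same cascades. In it 4 rose and 0 fell (edgeR), against 13.5% and 14.0% of all genes, with a median of 0.20 on the log2 scale. At an unadjusted p under 0.05 the counts were 6 and 0, and DESeq2 gave 5 and 0. Ctsl, the gene of cathepsin L, rose by 0.59 (SE 0.15), Plg (plasminogen) by 0.50 (SE 0.14) and F7 (coagulation factor VII) by 0.35 (SE 0.11), with edgeR adjusted p-values of 0.0142, 0.0226 and 0.031. The Ctsl call was lost without DOX 3, PBS 1 or PBS 3, and the Plg and F7 calls without DOX 1, DOX 3, PBS 1 or PBS 2. All 3 calls were also lost under library size alone. The list had 1 higher call without DOX 1, DOX 3 or PBS 2 and 0 without PBS 1, and it had 1 lower call without DOX 2. Elane, the gene of neutrophil elastase, was at 0.0265, 0 and 0 CPM in DOX livers and 0.0230, 0.0456 and 0 CPM in PBS livers.

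Among serpins of other clades, calls were lower in DOX livers. Of 15 tested, 0 rose and 6 fell (edgeR), against 13.5% and 14.0% of all genes, with a median of -0.31 on the log2 scale. At an unadjusted p under 0.05, 1 was higher and 8 lower, and DESeq2 called 0 higher and 7 lower. Serpinb6b fell by 0.79 (SE 0.12, adjusted p = 0.00131, edgeR). Serping1, the complement C1 inhibitor, stood at 211, 257 and 215 CPM in DOX livers, against 349, 367 and 434 CPM in PBS livers, and fell by 0.75 (SE 0.13, adjusted p = 0.00235, edgeR). Serpinh1, the collagen chaperone, fell by 0.66 (SE 0.13, adjusted p = 0.00387, edgeR). Without DOX 3 or PBS 1 the list had 3 lower calls. Stellate cell and fibroblast markers moved the same way: 6 of 10 fell and 0 rose, and their sum was 943 to 1304 CPM in DOX livers and 1593 to 1943 CPM in PBS livers. Their part in the serpin differences was not tested.

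Acute-phase genes, among which Serpina3n is usually counted, were divided. Of 35 tested, 9 rose and 4 fell (median log2 fold change 0.19), against 13.5% and 14.0% of all genes. Hamp, the gene of the iron hormone hepcidin, rose by 1.69 (SE 0.16, adjusted p = 9.75e-05, edgeR). Il1r1, the interleukin 1 receptor, rose by 0.92 (SE 0.14), and Il1rn, the receptor antagonist, fell by 0.91 (SE 0.14), with edgeR adjusted p-values of 0.00113 and 0.00132. Stat3, the transcription factor of the interleukin 6 response, had a log2 fold change of 0.19 (SE 0.11) and did not pass (adjusted p = 0.232, edgeR). Without DOX 2 the list had 7 lower calls.

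Of 18 tested hepatocyte transcription factors, 2 rose and 3 fell (median log2 fold change -0.07), against 13.5% higher and 14.0% lower over all genes. Foxa1 fell by 0.61 (SE 0.13, adjusted p = 0.00647, edgeR), Onecut2 fell by 0.40 (SE 0.10) and Hnf4a rose by 0.42 (SE 0.13). The Onecut2 call was lost without DOX 1, PBS 2 or PBS 3, and the Hnf4a call without DOX 1, DOX 3, PBS 1 or PBS 2. The higher count was 0 without DOX 1, DOX 3, PBS 1 or PBS 2 and 1 without PBS 3, and the lower count was 1 without DOX 1 or PBS 3.

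Genes of secretory export and quality control handle antitrypsin in the endoplasmic reticulum. They gave 5 higher and 2 lower of 26 tested (median log2 fold change 0.19), against 13.5% and 14.0% of all genes. Calr, the chaperone calreticulin, stood at 933, 896 and 773 CPM in DOX livers, against 468, 464 and 537 CPM in PBS livers. It rose by 0.82 on the log2 scale (SE 0.13, adjusted p = 0.0014, edgeR) without overlap. Os9, a sensor of misfolded glycoproteins, rose by 0.47 (SE 0.12) and Lman1, a cargo receptor for antitrypsin, by 0.49 (SE 0.13). The Os9 call was lost without DOX 1, DOX 3, PBS 1 or PBS 2, and the Lman1 call without PBS 1 or PBS 2. The higher count was 2 without DOX 1, 1 without PBS 1 or PBS 2, and 3 without PBS 3, and the lower count was 0 without DOX 1 or PBS 3 and 1 without DOX 3, PBS 1 or PBS 2.

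Growth hormone sets the level of many secreted liver proteins in mice. Of 16 tested genes of that axis, 1 rose and 3 fell (median log2 fold change -0.03), against 13.5% and 14.0% of all genes. Igfbp3, a carrier of insulin-like growth factors, rose by 1.12 (SE 0.18, adjusted p = 0.00211, edgeR). Mup3, a major urinary protein, stood at 0.503, 0.766 and 0.349 CPM in DOX livers, against 2.14, 7.21 and 3.35 CPM in PBS livers. At these low levels it fell by 2.96 (SE 0.48, adjusted p = 0.00229, edgeR). Its family holds near-identical copies, and sequence shared with Mup3 was not measured, so its counts are uncertain. Bcl6, a repressor in this axis, fell by 0.69 (SE 0.19), a call lost without PBS 2 or PBS 3. The higher count was 2 without DOX 1, PBS 1 or PBS 2, and the lower count was 6 without DOX 2 and 1 without PBS 3.

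**Figure D4:**
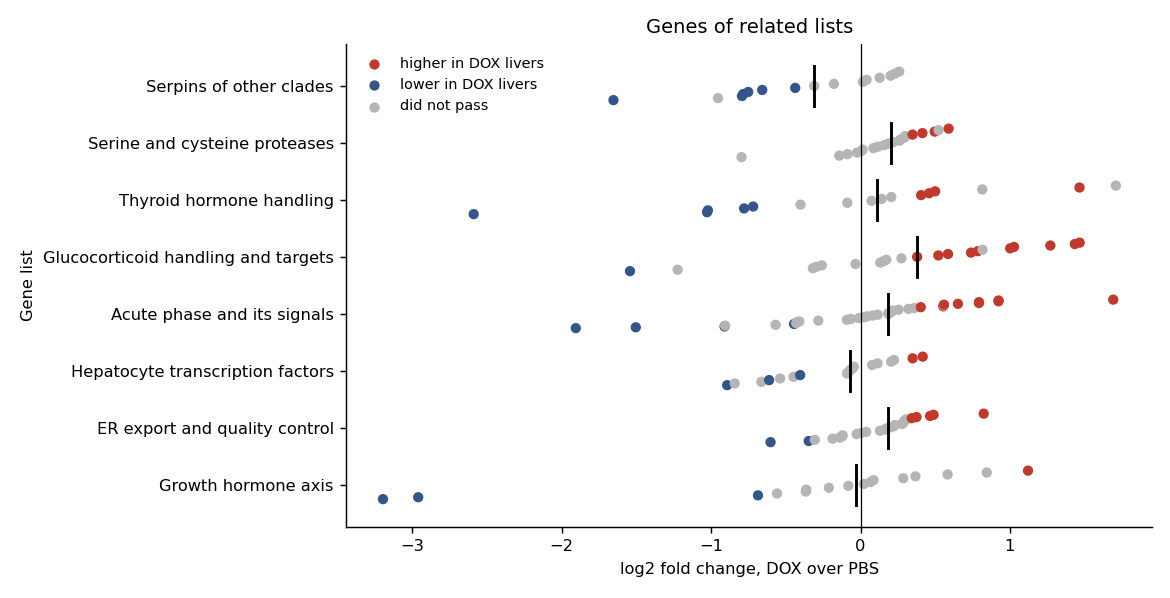
Log2 fold change (DOX over PBS) of each tested gene of 8 lists, 1 row per list, with genes that passed as higher in DOX livers in red, lower in blue and the rest in grey, and a black bar at the list's median. The glucocorticoid list has 10 red points and 1 blue point, and serpins of other clades have 0 red points and 6 blue points. Over all genes tested, 13.5% passed as higher and 14.0% as lower.

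Cell type markers put the liver samples in context. Their calls are read beside the 13.5% higher and 14.0% lower over all genes tested. Of 9 tested hepatocyte markers, 3 rose and 0 fell, and their sum was 107269 to 132414 CPM in DOX livers and 102011 to 110076 CPM in PBS livers, with overlap. Endothelial markers summed to 297 to 360.4 CPM in DOX livers and 246 to 289.6 CPM in PBS livers, with 5 of 10 higher. Cholangiocyte markers (1 higher and 2 lower of 10) summed to 574 to 826 CPM in DOX livers and 810.0 to 985 CPM in PBS livers. Macrophage markers (1 higher and 0 lower of 10) summed to 1758 to 1805 CPM in DOX livers and 1667 to 1815 CPM in PBS livers. Neutrophil markers (2 higher and 2 lower of 6 tested) summed to 42.2 to 92.4 CPM in DOX livers and 44.5 to 67.2 CPM in PBS livers. Every gene of the table had counts in at least 1 library, so a marker at 0 throughout could not be seen. The part of the cell type markers in the Serpina differences was not tested.

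The genes most like Serpina3k and Serpina6 were sought among 12209 genes outside the family by the root mean square difference of centred log2(CPM + 0.5) over the 6 libraries. Likeness here includes the difference between the groups. Nearest to Serpina3k were Bhlha15, a transcription factor gene of secretory cells, Sdsl, a serine dehydratase-like gene, and Scnn1a, an epithelial sodium channel subunit, with differences of 0.163, 0.175 and 0.212 log2 units. Sdsl stood at 51.0, 43.2 and 53.1 CPM in DOX livers, against 14.7, 17.1 and 16.6 CPM in PBS livers. Bhlha15 was far scarcer, at 1.48, 2.09 and 2.57 CPM in DOX livers and 0.161, 0.205 and 0.234 CPM in PBS livers. At such levels the added 0.5 narrows its fold. Its fitted log2 fold change was 3.33 (SE 0.40, 10.1-fold), against 1.68 for Serpina3k, so its likeness depends on the added 0.5.

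Nearest to Serpina6 were Rgn, the calcium-binding protein regucalcin, Sprr1a, a cornified envelope precursor, and Slc22a3, an organic cation transporter, with differences of 0.133, 0.167 and 0.200 log2 units. Rgn stood at 71.8, 117 and 38.6 CPM in DOX livers, against 312, 287 and 316 CPM in PBS livers. In Rgn, as in Serpina6, Serpina7, Serpina10 and Serpina12, DOX 2 was the highest DOX library and DOX 3 the lowest. Rgn was chosen for its likeness to Serpina6 over these same libraries, so nothing is read from that shared order.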

How the data were processed

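The authors deposited 2 tables of the same 6 libraries: read counts per gene symbol, with no normalization, and FPKM values per gene symbol. Per the submitters' processing notes the builds GRCm38, mm10 and hg38 were named, with no role given, and the sources used here name no aligner, counter, annotation or use of strand. Per the labels' protocols, total RNA of liver went into the SMARTER mRNA library kit.

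Deposited counts were filtered with edgeR's filterByExpr (minimum count 10, minimum total 15), scaled by TMM and tested with edgeR 4.0.16 (robust quasi-likelihood fit, R 4.3.3) for DOX against PBS over all 14681 genes that passed, with Benjamini-Hochberg adjustment and a threshold of 0.05. CPM are these counts scaled to a common TMM-adjusted library total. The FPKM as deposited were used only to compare levels between genes and to rank them. Sequences were read with Biopython 1.88 from GENCODE M21 and from RefSeq promoters of GRCm38.p6, with 100-base windows for shared coding sequence. The procedure was tested on simulated counts.

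Alternatives were RLE size factors, library size alone, no filter, DESeq2 1.42.0, a replicate block, and leaving out each library. The groups share replicate numbers in the titles, but same-numbered libraries did not deviate together (correlations of 0.086, -0.073 and -0.134), so the libraries were not treated as paired. No 2 libraries of a group agreed within sampling noise (chi-square per degree of freedom of 30 or more). The spread over 3 libraries per group limits precision.

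The members and the 9 gene lists and 8 marker lists were chosen with earlier results of these data known. Genes named were the members, the other Serpina genes, up to 3 called genes per list by smallest p, the 3 genes most like Serpina3k and Serpina6 at a mean of 1 CPM or more, and Bche. Proz, F10, Ttr, Stat3, Elane, Tat, Hsd11b1, Akr1c6, Akr1d1, Pck1, Mt1, Adipoq and Fabp4 fall outside this rule and were picked with values in view. Some genes are not reported here.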

Additional observations from a re-analysis of the deposited data

How the results depend on the processing

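The log2 fold change of each of the 10 members kept its sign under all 11 alternatives. Members called higher numbered 4 or 5 and members called lower 3 or 4. As the members were selected on this comparison, nothing is read from their kept signs or calls. The summed Serpina1 counts gave 0.86 to 1.11 and the summed Serpina3 counts 1.30 to 1.55 on the log2 scale over the same alternatives. Scaled by library size alone, the median log2 fold change of all genes moved to -0.16 against -0.01, and 1028 genes were called higher and 3429 lower. Under that scaling, higher calls numbered 0 for proteases, 1 for thyroid hormone genes, 0 for hepatocyte transcription factors and 1 for secretory quality control. Lower calls numbered 2 for glucocorticoid genes, 7 for acute-phase genes, 5 for hepatocyte transcription factors and 5 for the growth hormone axis, and Proz turned to -0.14. With no filter on low counts, 1 protease and 0 glucocorticoid genes were called lower, and DESeq2 called 2 growth hormone genes higher. With the replicate block, hepatocyte transcription factors gave 1 higher and 5 lower, secretory quality control 3 higher, and the growth hormone axis 2 higher and 5 lower. Also under the block, Serpina1e lost its call (2.72), and no other Serpina call changed.

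Leaving out 1 library at a time gave 1208 to 2440 genes called higher and 1305 to 2348 lower. In that range of fits, lower calls were 3 to 6 for serpins of other clades and 3 to 7 for acute-phase genes. Proteases gave 0 to 5 higher and 0 to 1 lower, thyroid hormone genes 1 to 5 higher and 3 to 5 lower, and glucocorticoid genes 0 to 1 lower. Hepatocyte transcription factors gave 0 to 2 higher and 1 to 4 lower, secretory quality control 1 to 6 higher and 0 to 3 lower, and the growth hormone axis 1 to 2 higher and 1 to 6 lower. Serpina3i ranged from -0.15 to 0.47 and Proz from -0.056 to 0.13. The cause of these shifts was not tested. With 1 library left out, its group holds 2 libraries and fewer residual degrees of freedom. The scarce genes Serpina3c, Serpina3f, Serpina3i and Serpina5 are limited by their counts.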
